A study of Mus musculus with 12 samples.

Results

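The genes described here are 10 genes of epithelial junctions and epithelial splicing, chosen by name from the 22630 genes in the files. They are Cdh1, Epcam, Cldn3, Cldn4, Cldn7, Ocln, Tjp1, Esrp1, Esrp2 and Grhl2. Each of the 10 had at least 10 counts summed over the tumors, so all of them were among the 17561 genes tested. RNA was sequenced from 12 unsorted tumors grown under the skin, with 4 no-dox, 4 plus-dox and 4 off-dox tumors. All 12 grew in NSG mice of 8 to 10 weeks, a strain without mature T, B or NK cells, from 500000 injected KCip53-1 cells. KCip53-1 is a single mouse pancreatic cancer line with Ptf1a-Cre, the reverse tetracycline transactivator from the Rosa26 locus and a tetracycline-driven p53R270H transgene, and every group shared these alleles. No-dox mice received no doxycycline (dox). Plus-dox mice were given it as 0.2 g/l in 5% sucrose to drink for 36 days. Off-dox mice were given it for 33 days, and it was withdrawn for the last 3, by the labels, whereas the study's text places the withdrawal at the time when tumors could be felt. Each mouse carried 2 tumors, and the labels do not say which tumors shared a mouse. The tests treat tumors as independent, which makes their p-values too small wherever a mouse gave 2 tumors to a group.

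Epithelial cells are held together by adherens junctions, in which cadherins bind neighboring cells, and by tight junctions, in which claudins and occludin seal the space between cells and zonula occludens proteins tie them to actin. The splicing factors Esrp1 and Esrp2 direct the epithelial forms of many transcripts, and the grainyhead factor Grhl2 is known to activate junction genes including Cdh1 and Cldn4. In epithelial-mesenchymal transition (EMT), a program studied widely in pancreatic cancer, repressors of the Zeb and Snail families act on Cdh1 and other members of this group.

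No difference between groups in these genes passed the test, and the spread between tumors of a group was wide. A single plus-dox tumor, number 2, had the lowest level of 9 of the 10 genes, and Epcam there was at 3.11% of the no-dox mean. Off-dox tumor 4 was among the lowest 2 tumors for 6 of the 10. Plus-dox tumors 3 and 4 stood at the other end, with the highest Cldn3, Cldn7 and Grhl2 of all 12 tumors. In bulk tumors, fewer epithelial cells and less RNA per cell cannot be told apart.

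Counted reads ran from 19845923 to 33137609 per tumor, and 81.1% to 89.4% of mapped reads fell on genes, with every no-dox tumor above the other 8, so that this share and the no-dox group cannot be told apart. Trp53, the gene switched on by dox, had a mean RPKM (reads per kilobase of exon, scaled to the mapped reads) of 47.7 ± 7.27 in the no-dox group, 48.5 ± 6.44 under dox and 44.0 ± 1.72 after its removal (SD, n = 4). Gene counts do not separate the transgene from other Trp53 transcripts, so this level does not check the labels. The epithelial label held, since Krt8 and Krt18, the keratins of simple epithelia, were at 318 to 973 and 391 to 947 RPKM over the 12 tumors.

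Cdh1 encodes E-cadherin, the cadherin of epithelial adherens junctions, and lies on chromosome 8 of mm9 at 109127268 to 109194146 on the plus strand. Its RPKM was 121, 183, 90.6 and 191 in no-dox tumors 1 to 4. It was 111, 22.1, 122 and 104 in plus-dox tumors 1 to 4. In off-dox tumors it was 146, 122, 57.5 and 42.1. Plus-dox tumor 2 was the lowest, followed by off-dox tumors 4 and 3, and all 3 groups overlapped. By edgeR's quasi-likelihood test with Benjamini-Hochberg adjustment, the log2 fold change was -0.69 ± 0.50 (SE) for plus-dox against no-dox (adjusted p = 0.53). The off-dox value against no-dox was -0.65 ± 0.50 (edgeR adjusted p = 0.48).

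Epcam, an epithelial cell adhesion molecule of carcinoma cells that associates with claudin 7, had the highest mean of the 10 genes. It lies on chromosome 17 of mm9 at 88035319 to 88050467, plus strand. No-dox tumors 1 to 4 had an RPKM of 204, 388, 166 and 241. Plus-dox tumors had 159, 7.76, 146 and 133. Off-dox tumors had 265, 160, 72.3 and 40.9. The 4 plus-dox tumors were all below the 4 no-dox tumors, although the nearest values, 159 and 166, were close. Off-dox tumors overlapped with both groups. Epcam was the only one of the 10 genes whose plus-dox and no-dox groups did not overlap, where 3.46% of all genes tested were likewise lower without overlap and 4.3% were higher. The mean was 250 ± 97.3 RPKM in no-dox and 111 ± 70.0 in plus-dox tumors (SD, n = 4), with a log2 fold change of -1.15 ± 0.73 (SE, edgeR adjusted p = 0.48). Without plus-dox tumor 2 the log2 fold change was -0.76 (edgeR adjusted p = 0.60).

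Of the 10 genes, 6 had a promoter among the RefSeq sequences used here (Epcam, Cldn3, Cldn4, Cldn7, Ocln and Tjp1). Over the 250 bases before each start, the letters CAGGTG or their reverse complement CACCTG, the E-box bound by Zeb and Snail factors, occurred in Epcam, Cldn4, Cldn7 and Ocln, that is 4 of 6, and in 19.4% of all 27025 genes in the table. The windows of Epcam and Cldn4 are shown because these genes were far below the no-dox tumors in plus-dox tumor 2, and that of Tjp1 because it was little lower there, so the 3 were picked with their values known. Sequences are 5′ to 3′ on the strand of the gene, from GRCm38.p6, a later build than the mm9 of the counts, and capitals mark the E-box letters on either strand. The Epcam window is chr17:87635729-87635978 (plus strand), that of Cldn4 is chr5:134946935-134947184 (minus strand) and that of Tjp1 is chr7:65371245-65371494 (minus strand).
Epcam: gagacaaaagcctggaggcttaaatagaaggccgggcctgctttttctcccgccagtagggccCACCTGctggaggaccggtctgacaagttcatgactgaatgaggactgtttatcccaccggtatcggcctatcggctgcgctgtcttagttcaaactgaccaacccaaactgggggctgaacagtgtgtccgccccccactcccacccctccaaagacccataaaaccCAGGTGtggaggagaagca
Cldn4: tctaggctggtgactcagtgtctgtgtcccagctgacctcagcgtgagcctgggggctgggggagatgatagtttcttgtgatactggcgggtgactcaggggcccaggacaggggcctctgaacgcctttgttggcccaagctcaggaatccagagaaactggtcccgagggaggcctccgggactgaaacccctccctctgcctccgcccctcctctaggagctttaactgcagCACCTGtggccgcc
Tjp1: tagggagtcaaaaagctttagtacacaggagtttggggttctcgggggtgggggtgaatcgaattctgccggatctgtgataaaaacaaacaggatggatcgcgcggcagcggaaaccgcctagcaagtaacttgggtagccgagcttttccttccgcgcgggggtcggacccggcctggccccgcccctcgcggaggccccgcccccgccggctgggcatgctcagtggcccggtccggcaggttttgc
In Epcam the matches began 187 and 19 bases before the start, in Cldn4 the match began 14 bases before it, and Tjp1 had none. Cldn3, which in plus-dox tumor 2 was the lowest of the 10 relative to the no-dox mean, had none either. A match describes letters and does not show binding.

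**Figure D1:**
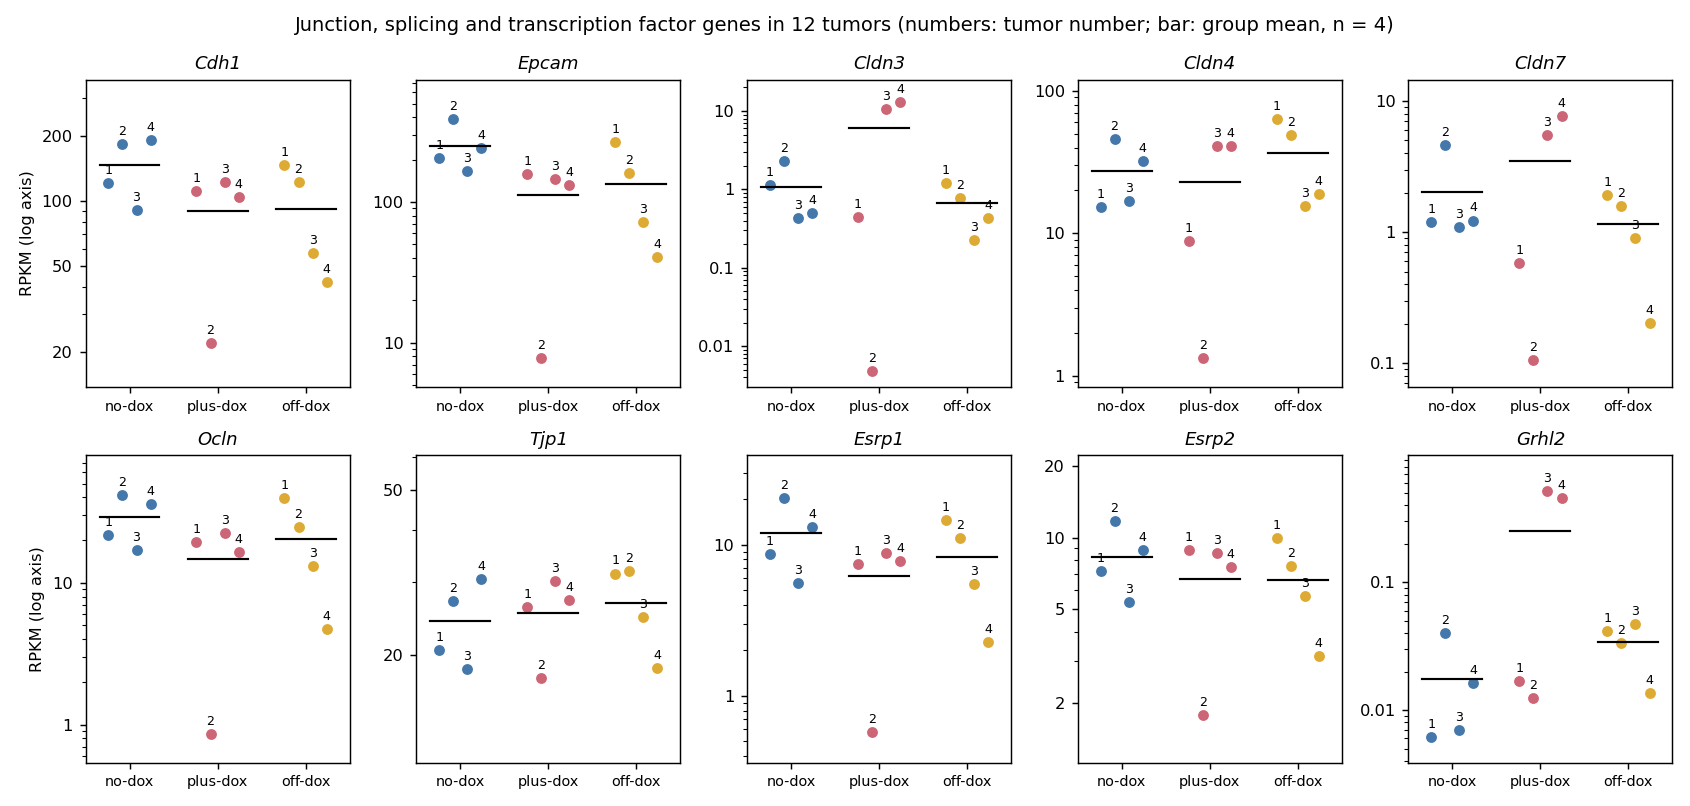
RPKM (log axis) of the 10 genes in each of the 12 tumors by group, with the tumor number above each point and the group mean as a bar (n = 4). Plus-dox tumor 2 is the lowest point of 9 genes, and plus-dox tumors 3 and 4 are the highest points of Cldn3, Cldn7 and Grhl2.

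Among the tight junction genes, Cldn4 was the most abundant claudin of the group. Claudin 4 is a barrier-forming claudin, and its gene lies on chromosome 5 of mm9 at 135420993 to 135422804, minus strand. Its RPKM was 15.2, 45.6, 16.7 and 32.4 in no-dox tumors and 8.81, 1.33, 41.1 and 40.9 in plus-dox tumors. Off-dox tumors had 63.0, 48.8, 15.6 and 18.9. The groups overlapped, plus-dox tumor 2 was again lowest, and off-dox tumor 4 lay within the no-dox range, unlike for Epcam and Cdh1. Plus-dox against no-dox gave a log2 fold change of -0.23 ± 0.80 (SE, edgeR adjusted p = 0.91), which turned to 0.17 without plus-dox tumor 2.

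Cldn3 and Cldn7 also encode barrier claudins, and Cldn3 lies on the same chromosome as Cldn4, at 135462084 to 135463302 on the plus strand. Cldn7 lies on chromosome 11 at 69778281 to 69781388, plus strand. Cldn3 had an RPKM of 1.14, 2.29, 0.43 and 0.50 in no-dox tumors and 1.22, 0.78, 0.22 and 0.44 in off-dox tumors. In plus-dox tumors 1 to 4 it had 0.45, 0.0048, 10.5 and 13.2. Plus-dox tumors 3 and 4 were thus above all other tumors, while tumor 2 held less than a whole count (0.192), below the 3 counts taken as the floor of detection. Cldn7 was at 1.19, 4.64, 1.09 and 1.22 in no-dox tumors. It was at 0.58, 0.105, 5.52 and 7.65 in plus-dox tumors. In off-dox tumors it was at 1.91, 1.59, 0.90 and 0.20. Both plus-dox groups enclosed the whole range of the no-dox tumors, so the groups overlapped from both sides.

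Plus-dox against no-dox, Cldn3 had a log2 fold change of 2.51 ± 1.22 (SE, edgeR adjusted p = 0.39), and from 1.85 to 3.14 when any single tumor was left out. That of Cldn7 was 0.80 ± 0.99 (SE, edgeR adjusted p = 0.71), and from 0.12 to 1.57 when any single tumor was left out. With plus-dox tumors 3 and 4 both left out, a choice made because these values were the highest, the log2 fold changes were -2.35 and -2.61, a direction that the choice itself sets. Off-dox tumors against no-dox had -0.66 ± 1.23 for Cldn3 and -0.79 ± 1.01 for Cldn7 (SE, edgeR adjusted p = 0.79 and 0.68).

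Ocln encodes occludin, a membrane protein of the tight junction strand, on chromosome 13 of mm9 at 101267322 to 101322453, minus strand. Its RPKM was 21.8, 41.6, 16.9 and 36.0 in no-dox tumors. Plus-dox tumors had 19.5, 0.861, 22.3 and 16.6, and off-dox tumors had 39.3, 24.8, 13.1 and 4.76. Plus-dox tumor 2 was at 2.96% and off-dox tumor 4 at 16.4% of the no-dox mean, and the groups overlapped. The log2 fold change was -0.96 ± 0.76 for plus-dox and -0.49 ± 0.75 for off-dox against the same no-dox tumors (SE, edgeR adjusted p = 0.56 and 0.74).

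Tjp1 encodes ZO-1, the scaffold beneath tight junctions that is also present in cells other than epithelia, on chromosome 7 of mm9 at 72441051 to 72516130, minus strand. It was the steadiest of the 10 genes, at 20.6, 27.1, 18.5 and 30.6 RPKM in no-dox tumors. Plus-dox tumors had 26.1, 17.6, 30.2 and 27.2, and off-dox tumors had 31.5, 31.9, 24.8 and 18.7. Plus-dox tumor 2 was the lowest here too, but at 72.8% of the no-dox mean. The log2 fold change was 0.07 ± 0.22 for plus-dox and 0.17 ± 0.22 for off-dox against no-dox tumors (SE, edgeR adjusted p = 0.89 and 0.69).

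Esrp1 and Esrp2 encode the epithelial splicing regulators. Esrp1 lies on chromosome 4 of mm9 at 11259185 to 11313930, minus strand, and its RPKM was 8.70, 20.6, 5.58 and 13.1 in no-dox tumors. Plus-dox tumors had 7.5, 0.578, 8.85 and 7.85. Off-dox tumors had 14.6, 11.03, 5.49 and 2.27. Tumor 2 stood far below the other 3 plus-dox tumors, which lay close together and within the no-dox range. The log2 fold change of Esrp1 was -0.93 ± 0.71 for plus-dox and -0.50 ± 0.70 for off-dox against no-dox tumors (SE, edgeR adjusted p = 0.54 and 0.71).

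Esrp2, on chromosome 8 of mm9 at 108655083 to 108660874, minus strand, varied less than Esrp1. No-dox tumors had an RPKM of 7.23, 11.7, 5.31 and 8.82. Plus-dox tumors had 8.87, 1.78, 8.59 and 7.47, and off-dox tumors had 9.95, 7.58, 5.64 and 3.15. Plus-dox tumor 2 kept 21.5% of the no-dox mean of Esrp2 but 4.82% of that of Esrp1. Without plus-dox tumor 2, the log2 fold change of Esrp2 between plus-dox and no-dox tumors went from -0.29 ± 0.45 (SE, edgeR adjusted p = 0.77) to 0.02. Of 8 transcripts known to be spliced by these factors, among them Cd44, Ctnnd1 and Slk, 0 were called between any groups by edgeR. These are levels of whole genes and say nothing of isoforms, which were not counted.

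Grhl2, on chromosome 15 of mm9 at 37162791 to 37293323, plus strand, was near the floor in 10 of the 12 tumors. Its counts were 1.04, 6, 1 and 3 in no-dox tumors, and 5, 4, 6 and 2 in off-dox tumors. Plus-dox tumors 1 and 2 had 2 counts each. Plus-dox tumors 3 and 4 had 93.8 and 57.6 counts, an RPKM of 0.516 and 0.459, while the highest of the other 10 tumors was 0.0472. The plus-dox group therefore held both near-floor tumors and the highest tumors, and it overlapped with the others. The log2 fold change against no-dox was 3.84 ± 1.10 (SE, edgeR adjusted p = 0.32), and from 3.14 to 4.55 when any single tumor was left out. It was -0.24 without plus-dox tumors 3 and 4, which were picked for their high values. DESeq2 gave an adjusted p of 0.059 without and 0.073 with moderated fold changes, below 0.1, but the mean of 0.134 RPKM over the 8 tumors is under the minimum of 0.25 RPKM for a call.

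By mean RPKM over all 12 tumors the order of the 10 genes was Epcam (165), Cdh1 (109), Cldn4 (29.0), Tjp1 (25.4), Ocln (21.5), Esrp1 (8.84), Esrp2 (7.18), Cldn3 (2.60), Cldn7 (2.22) and Grhl2 (0.101). Cdh1 was above Cldn4, Ocln above Esrp1 and Cldn7 above Grhl2 in 12 of 12 tumors, so these steps hold within every tumor. Cldn4 was above Tjp1 in only 7 tumors and Cldn3 above Cldn7 in only 3, so neither of these neighbors can be ordered beyond their spread.

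In the comparison of plus-dox with no-dox tumors, edgeR's quasi-likelihood test called 0 of the 10 genes at an adjusted p under 0.1 and a change over 1.5-fold, as it did for 0% of all genes tested. At an unadjusted p under 0.05 it found 1 of the 10 (Grhl2), where 13.7% of all genes passed. DESeq2 called 0 of the 10, beside 0.729% of all genes without and 0.512% with moderated fold changes, and limma-voom called 0 of the 10, beside 0.638%. Of the 10 log2 fold changes, 6 were below 0, beside 48.6% over all genes, and their median was -0.26 beside 0.01 over all genes.

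Off-dox tumors, set against the same no-dox tumors, gave 0 calls among the 10 genes, where edgeR called 1.34% of all genes tested. None of the 10 reached an unadjusted p under 0.05 (20.4% of all genes did). DESeq2 called 0 of the 10, beside 3.5% of all genes without and 2.25% with moderated fold changes, and limma-voom 0 of the 10, beside 3.65%. In edgeR, 1.03% of all genes were called higher and 0.307% lower. None of the 10 separated the groups without overlap, where 4.99% of all genes were higher and 6.4% lower. The log2 fold change was below 0 for 7 of the 10, beside 49.3% of all genes, with a median of -0.49. Off-dox against plus-dox, the comparison of dox removal, gave 0 calls too (0% of all genes tested). It was 0 of the 10 by DESeq2 as well, beside 0.0342% of all genes without and 0.0228% with moderated fold changes, and by limma-voom, beside 0%. Cldn3 and Grhl2 had an unadjusted p under 0.05 there, beside 3.06% of all genes, with log2 fold changes of -3.17 ± 1.28 and -2.89 ± 1.05 (SE, edgeR adjusted p = 1 for both). When any single tumor was left out, they stayed between -3.63 and -2.51 for Cldn3 and between -3.29 and -2.20 for Grhl2. The other 8 genes lay between -1.59 for Cldn7 and 0.67 for Cldn4. Of the 10 values, 4 were below 0, beside 50.1% of all genes, and none of the 10 separated the groups (0.552% of all genes did so upward and 0.934% downward).

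**Figure D2:**
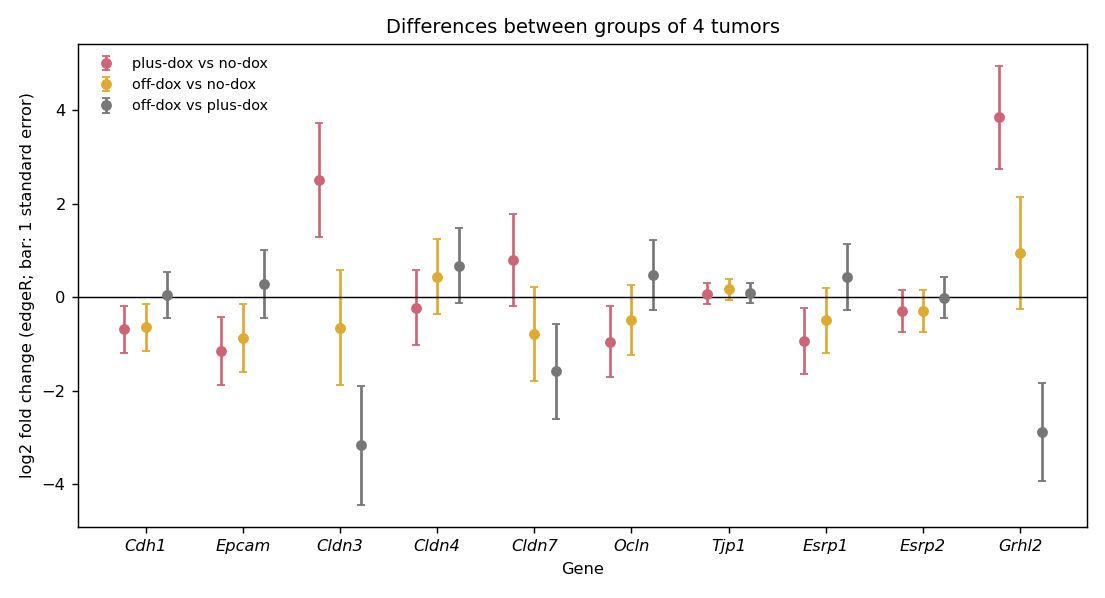
Log2 fold changes of the 10 genes between groups of 4 tumors from edgeR (first group minus second), with bars of 1 standard error. The widest are Cldn3 and Grhl2, at 2.51 and 3.84 in plus-dox against no-dox tumors, and Tjp1 has the smallest standard error, 0.22.

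The spread between tumors of a group was wider in these genes than in most others. The SD of log2 CPM (counts scaled to library size) within groups had a median of 1.45 over the 10 genes and 0.25 over the 14548 genes tested with a mean RPKM over 0.25. Cldn3 was at 2.33, above 99.8% of those genes, and Tjp1 at 0.34, above 66.3%. With plus-dox tumor 2 and off-dox tumor 4 left out, the medians were 0.63 and 0.21, so the median of the 10 genes stayed above that of the others.

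Centred on its own mean, each gene gives a profile over the tumors. Plus-dox tumor 2 averaged -2.81 over the 10 genes on the log2 scale, off-dox tumor 4 -1.12, plus-dox tumor 3 1.28, plus-dox tumor 4 1.09 and no-dox tumor 2 1.04. The averages of plus-dox tumors 3 and 4 were carried by Cldn3, Cldn7 and Grhl2. Some pairs moved in near-constant ratio. The log2 ratio of Epcam to Ocln had an SD of 0.27 over the 12 tumors, although Epcam itself ranged 50.0-fold and Ocln 48.4-fold. Ocln to Esrp1 had 0.27, Cdh1 to Esrp2 had 0.28 and Epcam to Esrp1 0.34, against a median of 1.18 over the 45 pairs. The widest was Epcam to Grhl2, at 2.02. Epcam, Ocln and Esrp1 thus kept near-constant ratios across tumors, while Cldn3, Cldn7 and Grhl2 departed from them in plus-dox tumors 3 and 4 and Tjp1 was nearly flat.

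**Figure D3:**
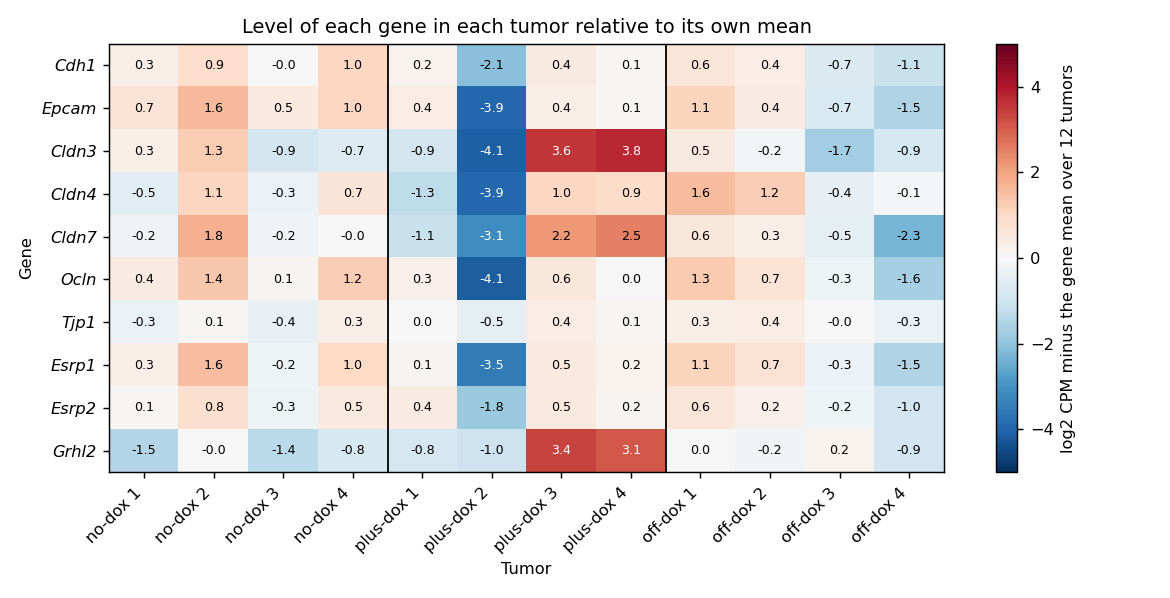
Log2 CPM of each of the 10 genes in each of the 12 tumors, minus the gene's mean over the tumors; red is above and blue below the mean. Plus-dox tumor 2 is blue in every row, most deeply for Cldn3 and Ocln, and plus-dox tumors 3 and 4 are deep red for Cldn3, Cldn7 and Grhl2.

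The genes outside the group whose profile lay nearest to the mean profile of the 10 were, in order, Spint1, Arhgap40, Sim2, Cyp3a13, Inadl, Bcl11b, Cgn, Dsg2, Cyp21a1 and St14. Likeness was the root mean square difference of centred log2 CPM over the 12 tumors, which was 0.37 for Spint1, an epithelial protease inhibitor, and 0.45 for St14, the protease matriptase, beside a median of 1.12 over 14539 genes. Of the 10 genes themselves, Cdh1 was nearest to the mean profile, at 0.51. Cldn3 (1.24) and Grhl2 (1.26) were farther from it than the median of 1.12, so the mean profile is not that of each of the 10. Cgn, the tight junction protein cingulin, was at 0.80 RPKM in plus-dox tumor 2 and 13.7 at its highest. Dsg2, a desmosomal cadherin, was at 0.92 in plus-dox tumor 2 and 20.4 at its highest.

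Other epithelial genes, listed by role, were lowest in plus-dox tumor 2 to differing extents. This tumor was the lowest of the 12 for 8 of 8 epithelial transcription factors, 8 of 10 desmosome genes, 8 of 10 other epithelial surface and trafficking genes, 10 of 16 other tight junction genes and 5 of 10 other claudins. Of the 8 transcription factors, Ovol2 was a tie, at 0 counts in both this tumor and off-dox tumor 4. Its highest count was 7, in no-dox tumor 2. Over all genes tested, plus-dox tumor 2 was lowest for 15.7%. It was lowest for 2 of 9 other adherens junction genes, and Ctnnb1 and Ctnna1, the catenins that bind cadherin tails, were at 221 and 90.4 RPKM there, beside no-dox means of 350 and 119. Off-dox tumor 4 was among the lowest 2 tumors for 6 of the 10 genes and for 6 of the 8 transcription factors, beside 29.4% of all genes. The same held for 7 of 10 other surface and trafficking genes, 6 of 10 desmosome genes and 9 of 16 other tight junction genes. It held for only 4 of 10 other claudins and 1 of 9 other adherens junction genes. Elf3, an epithelial ETS factor, was at 2.67 RPKM in plus-dox tumor 2 and 12.2 in off-dox tumor 4, with a no-dox mean of 53.02. Ehf, its relative, was at 1.32 and 5.32, with a no-dox mean of 42.7. In these 6 lists edgeR called 0 genes in any of the 3 comparisons.

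Simple epithelial keratins did not follow the junction genes in plus-dox tumor 2. Krt8 was at 532 RPKM there and between 504 and 588 in the other plus-dox tumors. Krt18 was at 608, between 498 and 647 in the others. Krt7 was the exception, at 13.5 RPKM beside 98.7 to 206 in the others. All plus-dox tumors were below all no-dox tumors for Krt8 (829.6 to 972.5 RPKM in no-dox) and Krt18 (738.2 to 947.3), while Krt7 and Krt19 overlapped. Of all genes tested, 3.46% were likewise lower without overlap. All 4 keratins had log2 fold changes below 0 both under dox and after its removal, against no-dox tumors. By edgeR, 0 of the 4 were called in either comparison, beside 0% and 1.34% of all genes (smallest edgeR adjusted p = 0.32 and 0.12).

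**Figure D4:**
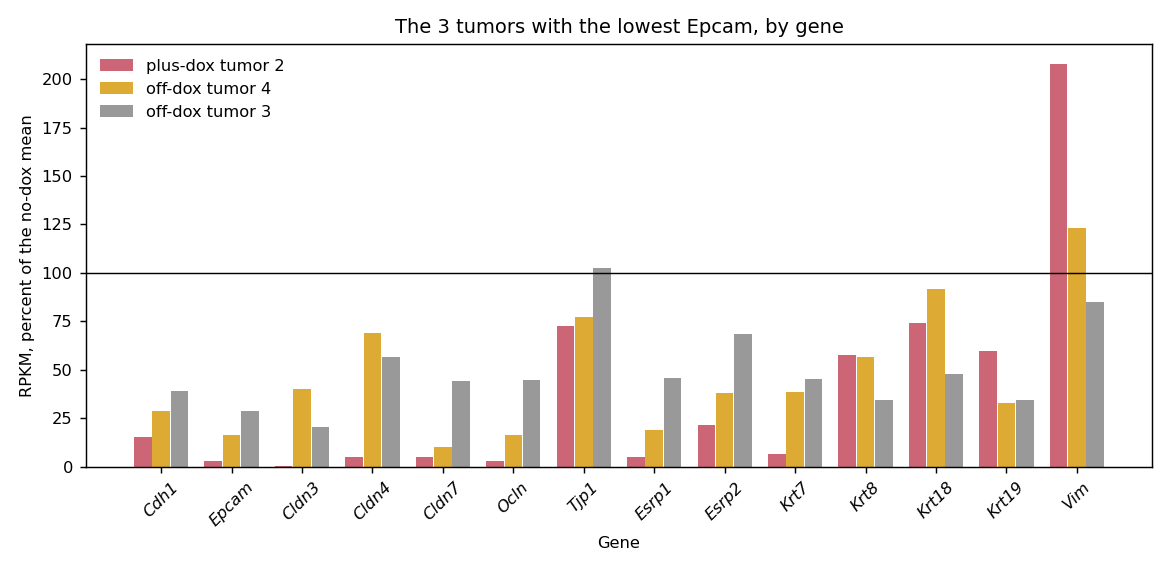
RPKM of 9 of the 10 genes (Grhl2, near the floor, is left out), 4 keratins and Vim in the 3 tumors with the lowest Epcam, as a percent of the no-dox mean (line at 100). In plus-dox tumor 2, Epcam is at 3.11%, Tjp1 at 72.8%, Krt18 at 74.1% and Vim at 208%.

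Mesenchymal genes were high in the same tumor. Of 8 EMT factors and mesenchymal genes, 5 were highest of all tumors in plus-dox tumor 2, beside 14.5% of all genes. Vim, the intermediate filament vimentin, was at 1756 RPKM there and between 720 and 1041 in the other 11 tumors. The repressor Snai1 was at 20.1, beside 6.83 to 12.3 in the others, and Snai2 at 7.65, beside 2.25 to 5.31. Off-dox tumor 4 had the highest Fn1 (866) and Cdh2 (19.7).

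Zeb1 and Zeb2, repressors of Cdh1, were the only genes of that list that edgeR called. Zeb1 had an RPKM of 9.66, 8.29, 8.22 and 9.87 in no-dox tumors and 11.6, 14.1, 16.7 and 14.1 in off-dox tumors, without overlap. Plus-dox tumors had 10.7, 12.6, 11.3 and 12.6. Zeb1 rose in off-dox against no-dox tumors by a log2 fold change of 0.67 ± 0.12 and Zeb2 by 0.71 ± 0.19 (SE, edgeR adjusted p = 0.079 and 0.097). The off-dox and no-dox groups overlapped for Zeb2, since off-dox tumor 1 was at 8.94 RPKM and no-dox tumors at 7.20 to 9.08. Plus-dox tumors were all above the no-dox tumors for both genes, for Zeb2 narrowly (lowest plus-dox value 9.15 RPKM). Of all genes tested, 4.3% were higher without overlap in plus-dox and 4.99% in off-dox against no-dox tumors. The log2 fold changes of plus-dox against no-dox were 0.40 ± 0.12 for Zeb1 and 0.56 ± 0.19 for Zeb2 (SE, edgeR adjusted p = 0.32 and 0.33). The calls were lost at an adjusted p under 0.05 and with a replicate block. They were lost too when any of no-dox tumors 1, 2 and 4, plus-dox tumor 4 or off-dox tumors 2, 3 and 4 was left out, since no gene was then called. Without no-dox tumor 3 only 1 of all genes was called, so the calls of Zeb1 and Zeb2 did not both hold there. The other 6 genes were not called.

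Some markers of other cells were also above the no-dox tumors in plus-dox tumor 2 and, to a lesser extent, in plus-dox tumors 3 and 4. The summed RPKM of 7 endothelial markers was 118 in plus-dox tumor 2, and 29.6 to 41.0 in no-dox tumors. That of 7 fibroblast markers was 2912, beside 1005 to 1866, and 6 of the 7 in each list were highest there. In plus-dox tumors 3 and 4 the fibroblast sums were 2097 and 1934 and the endothelial sums 50.8 and 43.2, also above the no-dox ranges. In plus-dox tumor 2 skeletal muscle markers summed to 399, beside 8.71 to 165 in no-dox tumors. That sum was inside the off-dox range of 9.15 to 1128, and 0 of the 7 muscle markers were highest there. Skin keratinocyte markers summed to 9.03 in plus-dox tumor 2, beside 18.5 to 51.5 in no-dox tumors. In off-dox tumor 4 the fibroblast sum was 1429 and the muscle sum 9.15, both inside the no-dox range, and the endothelial sum was 49.8. No marker of these lists was at 0 in every tumor of a group. In off-dox against no-dox tumors edgeR called the neutrophil receptors Csf3r and Cxcr2 higher (log2 fold changes 0.78 ± 0.17 and 0.90 ± 0.19, SE, edgeR adjusted p = 0.083 for both). It also called Nkg7 of cytotoxic cells higher (1.65 ± 0.39, adjusted p = 0.088) and Krt14 of keratinocytes lower (-1.71 ± 0.44, adjusted p = 0.090), and no other marker of these lists in any comparison. These calls were lost under the same settings as those of Zeb1 and Zeb2. They did not all hold without no-dox tumor 3, where 1 of all genes was called. Nor did they all hold with the 8 tumors of the pair alone, where 3 were called. The part of these cells in the result was not tested. Adipocyte and macrophage sums in plus-dox tumor 2, 187 and 2291, lay inside the no-dox ranges of 13.04 to 521 and 1603 to 2577, while neutrophil markers summed to 57.0 and T and NK cell markers to 5.59, above the no-dox ranges of 23.2 to 35.1 and 1.13 to 2.82. The T and NK cell sums of plus-dox tumors 3 and 4, 3.72 and 4.20, and the neutrophil sum of tumor 3, 51.2, were above those ranges too. The T and NK cell sums of plus-dox tumors 2, 3 and 4 were all inside the off-dox range of 2.91 to 8.00.

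Plus-dox tumors 3 and 4 shared more than Grhl2 and Cldn3. By a rule chosen after these values were seen, 21 genes of 14222 with over 0.25 RPKM in both were more than 2-fold higher in each of these tumors than in each of the other 10, and 2 of the 21 were Grhl2 and Cldn3. Further epithelial genes among them were Mal2, an apical trafficking protein, at 13.9 and 21.2 RPKM against at most 0.572, and Ap1m2, an epithelial clathrin adaptor, at 2.003 and 2.35 against at most 0.254. The tricellulin gene Marveld2 was at 0.622 and 0.986 against at most 0.231. The 21 were not epithelial genes alone and included Prm1, Igf2, Padi4 and Ppef1. The companion lists that hold Ap1m2 and Marveld2 were not high in these tumors. Other epithelial surface and trafficking genes summed to 546 and 519 RPKM, beside 549 to 912 in no-dox tumors. Other tight junction genes summed to 345 and 322, beside 340 to 501. Cldn7 was highest in both as well but less than 2-fold above no-dox tumor 2.

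The list also held Xist, the RNA of the inactive X chromosome, at 4.25 and 4.89 RPKM and at most 0.0485 in the others, whereas the Y-linked Ddx3y was between 16.9 and 21.5 in all 12 tumors. The part of sex-linked or host RNA in the levels of Grhl2, Cldn3 and Cldn7 was not tested.

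**Figure D5:**
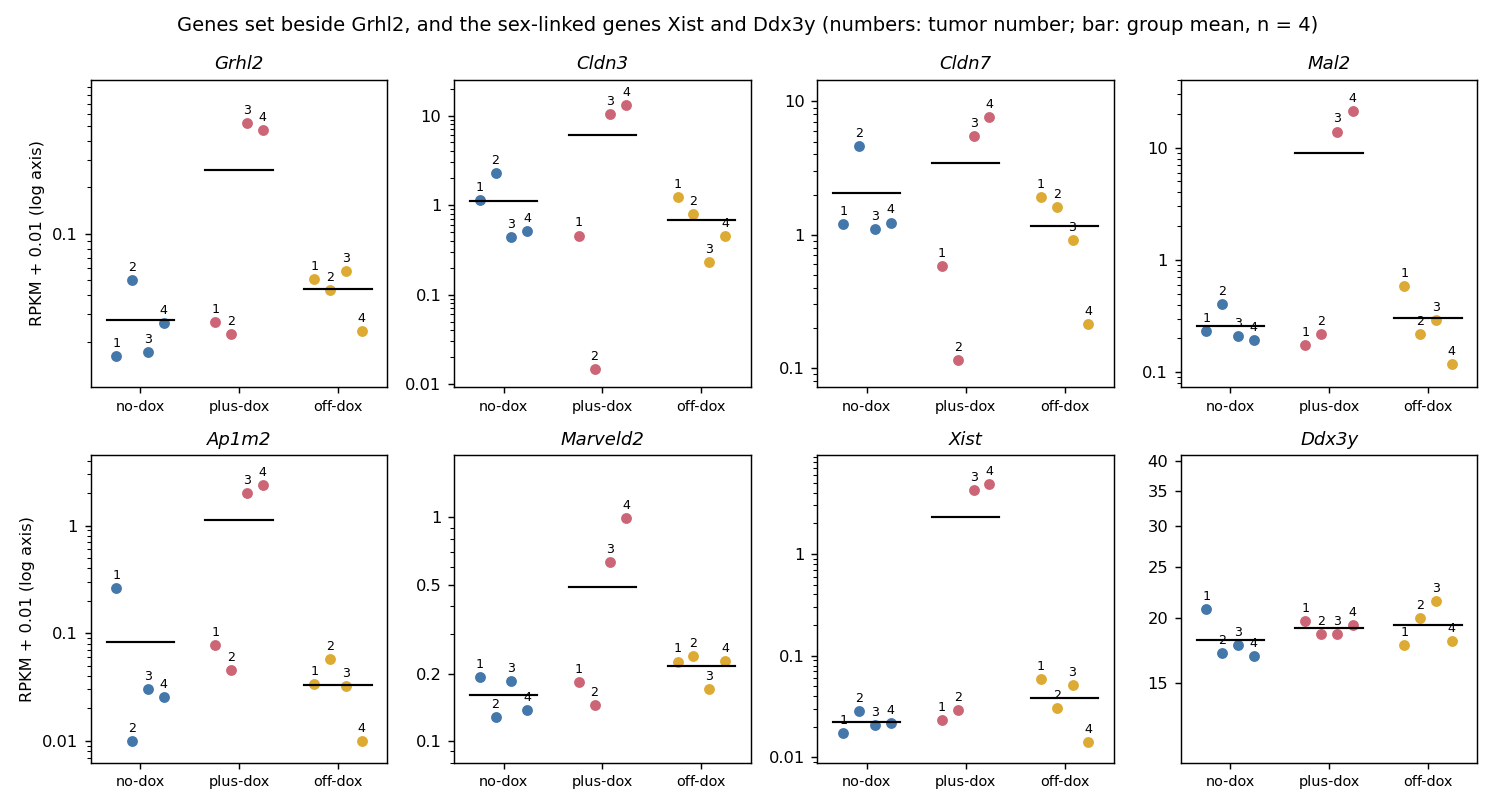
RPKM + 0.01 (log axis) of Grhl2, Cldn3, Cldn7, Mal2, Ap1m2, Marveld2, Xist and Ddx3y in each tumor, with the tumor number above each point and the group mean as a bar (n = 4). Plus-dox tumors 3 and 4 are the highest for all but Ddx3y, which stays between 16.9 and 21.5 RPKM in every tumor.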

How the data were processed

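RNA was sequenced (polyA+ libraries without strand, 50-bp reads) from 12 tumors, and groups were taken from the sample titles. The submitters' processing notes name CASAVA 1.8.2, Bowtie 0.12.8, TopHat 1.4.1 and bedtools 2.16.2, and the authors mapped reads to mm9. The deposited expected counts are base-wise coverage, in reads, of the exonic span of each gene that no other gene shares, and the deposited RPKM values are per exonic length and mapped reads as the authors computed them. Coordinates are those of the files with starts counted from 1.

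Counts were rounded to whole numbers. Genes with at least 10 counts over the 12 tumors were tested with edgeR 4.0.16 (R 4.3.3), using TMM factors and the quasi-likelihood test, with all 3 groups fitted together, and p-values were Benjamini-Hochberg adjusted over 17561 genes. A call needed an adjusted p under 0.1, more than a 1.5-fold change, more than 0.25 RPKM on average and over 250 bp of exon. Centred values are log2 CPM with a prior count of 2. A positive log2 fold change means higher in the group named first. The authors' test, DESeq2 (here in version 1.42.0), was an alternative. So was limma-voom with a weight for each tumor (limma 3.58.1), named limma-voom throughout. Others were other filters, normalization and thresholds, the 8 tumors of a pair alone, a replicate block and tumors left out. On simulated counts for plus-dox against no-dox (17561 genes), edgeR recovered 94.5% of 200 genes changed by 2 on the log2 scale, and 9.13% of its calls were false. The 200 were drawn at random from genes with many counts. This rate is not that of the 10 genes, which spread more widely within groups and include Grhl2 near the floor.

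The text names the 10 genes, the most abundant and the called genes of companion lists, EMT factors and keratins, Trp53 and the 10 nearest profiles, with the genes high in plus-dox tumors 3 and 4 added after their values were seen. Not every abundant gene of a companion list is printed. The 10 genes and the lists were chosen with earlier results of these data known. Promoter windows are RefSeq sequences. Figures were drawn with matplotlib 3.10.9.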

Additional observations from a re-analysis of the deposited data

Results flagged for a closer look

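In 30 sets of 4 tumors (10 genes in 3 groups), the most extreme tumor was compared with the rest of its group. In 2 of the 30 it stood apart, a share close to the 1 in 20 or so that chance alone gives. The sets are not independent, since they share the same tumors. In no-dox tumors, Cldn7 was at 4.645 RPKM in tumor 2, and the gap to the next tumor was 0.962 of the range of the group. In plus-dox tumors, Esrp1 was at 0.5775 RPKM in tumor 2, with a gap of 0.837 of the range. The same tumor was low in 8 further genes of the group, which did not pass the limit.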

How the results depend on the processing

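None of the 10 genes was called in any comparison under any of the 23 alternatives run, although Cldn3, Cldn7 and Grhl2 could not be tested with at least 10 counts in every tumor. Of 681 log2 fold changes under these alternatives, 647 kept their sign and side of the threshold. The other 34 changed sign, 14 in plus-dox against no-dox and 20 in off-dox against plus-dox. The 647 include values that could not move, since the threshold of 0.05 reuses the main fit. They also include values that could move little, where the tumor left out was of the group not compared. No value changed sign in off-dox against no-dox. In none of these cases was the cause tested. For plus-dox against no-dox, leaving out a tumor gave Tjp1 from -0.056 to 0.23, Cldn4 from -0.72 to 0.17 and Esrp2 from -0.48 to 0.021. Leaving out a tumor in off-dox against plus-dox gave Esrp2 from -0.33 to 0.21, Epcam from -0.27 to 0.58, Tjp1 from -0.044 to 0.22, Cdh1 from -0.28 to 0.27 and Ocln from -0.046 to 0.80. limma-voom gave Cldn4 0.11 (plus-dox against no-dox) and Cdh1 -0.079 (off-dox against plus-dox). Genes with at least 10 counts in every tumor gave Esrp2 0.00056 in off-dox against plus-dox. Leaving out plus-dox tumor 2 and off-dox tumor 4 together gave Cldn4 0.16 and Esrp2 0.016 in plus-dox against no-dox and Cdh1 -0.040 in off-dox against plus-dox, and a median within-group SD of 0.63. Leaving out plus-dox tumors 3 and 4, chosen after seeing the data for their high Cldn3, Cldn7 and Grhl2, gave Cldn3 -2.35, Cldn7 -2.61, Grhl2 -0.24 and Tjp1 -0.16 in plus-dox against no-dox, and Cldn3 1.69, Cldn7 1.82, Grhl2 1.19 and Esrp2 0.35 in off-dox against plus-dox.

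Over all genes, calls in off-dox against no-dox (235 in edgeR) went to 0 at an adjusted p under 0.05, 615 with DESeq2 without and 396 with moderated fold changes, 641 with limma-voom, 122 without a filter, 365 with at least 10 counts in every tumor, 3 with the 8 tumors alone, 471 without plus-dox tumor 2 and off-dox tumor 4, and 11 without plus-dox tumors 3 and 4. Leaving out single tumors gave 0 to 789, the highest without off-dox tumor 1. In plus-dox against no-dox (0 in edgeR), DESeq2 called 128 without and 90 with moderated fold changes, limma-voom called 112, and leaving out single tumors gave 0 to 3, the highest without plus-dox tumor 1. In off-dox against plus-dox (0 in edgeR), DESeq2 called 6 and 4, and leaving out single tumors gave 0 to 1, the highest without off-dox tumor 1. The fit with a replicate block called 0 genes in off-dox against no-dox. Deviations of tumors with the same number had a mean correlation of -0.088 over 12 pairs, and those with different numbers 0.043 over 36. These means give no sign that the numbers pair the tumors. They cannot exclude it, since the 12 values ranged from -0.449 to 0.566 and deviations are tied to each other within a group. Depth limits Grhl2, with 6 or fewer counts in 10 tumors, and Cldn3 in plus-dox tumor 2.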
